A study of Mus musculus with 16 samples.

Results

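The reproductive homeobox (Rhox) genes and the Xlr genes form clusters on the mouse X chromosome, and 6 of them were followed here across embryonic stem (ES) cells with normal, mutant and overexpressed Prdm4. The members were Rhox5, Rhox6, Rhox9, Rhox13, Xlr3a and Xlr4a, and every probe that the array annotation assigns to one of these symbols was taken. They were selected on their log2 differences and levels in these same arrays, so their differences between groups are given as a description, with a standard error (SE) and without a test. Of the 6 members 5 had a probe, 1 each, among 19057 genes with a named probe. No probe carried the symbol Xlr3a.

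Total RNA was hybridised to Illumina WG-6 v2 bead arrays, 1 array for each replicate culture of ES cells. Whether each wild-type or Prdm4-EGFP array came from a separate clone is not given in the sources used here. All groups were of strain 129/Sv. There were 6 wild-type arrays (Prdm4+/+), 4 Prdm4 null arrays (Prdm4∆ZF/∆ZF) and 6 Prdm4-EGFP arrays. In the null cells exons that encode part of the zinc finger domain, which binds DNA, were deleted on both alleles of Prdm4, a PRDM family zinc finger protein, by successive rounds of targeting with drug selection in the CCE line. The Prdm4-EGFP cells were CCE cells stably transfected with full-length Prdm4 fused to green fluorescent protein under the chicken beta-actin promoter, selected with puromycin and screened for the fusion protein, and they kept the endogenous alleles. Selection and time in culture cannot be told apart from genotype, and the null clones came from retargeting a few singly targeted clones, so that some may share a parent. Errors are the spread between arrays, which may be smaller than that between separately made lines.

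The Rhox cluster encodes homeodomain transcription factors that are used mainly in the testis, ovary and placenta. In the embryo proper most of the cluster is silenced by promoter DNA methylation as cells leave pluripotency, and Rhox5, first described as Pem, is the member best known from ES cells. Xlr genes encode relatives of the synaptonemal complex protein Sycp3 and lie in many near-identical copies, of which Xlr3b, Xlr4b and Xlr4c are known as imprinted genes in the brain. Probe sequences were not used here, so hybridisation of near-identical copies to 1 probe was not examined for any of these genes.

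Between 13894 and 14905 of the 45281 probes on an array were above background (detection p-value under 0.01), and 15356 probes detected on at least 4 of the 16 arrays were compared. Levels are normalized log2 signals, in which a difference of 1 is a doubling. The dimmer of both Prdm4 probes was not detected on any null array and was at least 3.19-fold lower there than in wild-type, where the null group was set at the lowest detected signal of each array, as for every "at least" value here. Such a bound holds for the background-corrected values used and can be higher than the ratio in uncorrected signals. The brighter probe was lower by a log2 difference of -0.63 (SE 0.07). Neither probe separated Prdm4-EGFP from wild-type cells (adjusted p = 0.984 and 0.717, limma), so they do not check that label. All 12 ES cell markers examined were detected in every group, but their levels differed. Null cells had 5 of them higher than wild-type and 2 lower (limma, threshold 0.05). Over all genes 22.9% were higher and 21.2% lower. Nanog was among the lower markers (log2 difference -0.85, SE 0.09). Fbxo15 (0.67, SE 0.11) and Dppa4 (0.43, SE 0.06) were among the higher. Between Prdm4-EGFP and wild-type cells 0 of these markers passed in either direction. The wild-type arrays were not alike: deviations from their mean correlated between -0.60 and -0.22 for the 9 pairs that set arrays 1, 5 and 6 against arrays 2, 3 and 4, and between -0.06 and 0.48 within these sets. The labels do not give these sets, and deviations from a shared mean are negatively correlated on average. The values therefore describe the split and do not test it. Because of this split, results below are also given without wild-type arrays 1, 5 and 6 where leaving them out ended the call of a named gene. They are also given for Rhox13 and Xlr4a, the members that leaving out these arrays moved most.

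Rhox6 and Rhox9, close relatives also known as Psx1 and Psx2 and best known from the placenta, were higher in the null cells than on any other array. Rhox6 was above background on 0 of 6 wild-type arrays, 4 of 4 null arrays and 1 of 6 Prdm4-EGFP arrays. Its log2 levels in wild-type arrays 1 to 6 were 5.13, 4.72, 5.04, 5.21, 4.95 and 5.03. The null arrays read 6.81, 6.76, 6.68 and 6.51. These groups did not overlap, and the log2 difference was 1.68 (SE 0.18), or at least 2.13-fold with the wild-type group set at the lowest detected signal. Its size depended on the treatment of background, since it was 0.96 (SE 0.10) with no background correction and 1.05 (SE 0.09) at an offset of 50. The Prdm4-EGFP arrays read 4.66, 5.40, 5.64, 4.55, 5.17 and 4.60, around the wild-type values, with only array 3 detected.

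Rhox9 was detected in 4 of 6 wild-type, 4 of 4 null and 3 of 6 Prdm4-EGFP arrays. Wild-type levels were 6.62, 5.35, 6.14, 6.40, 6.22 and 5.63, against null levels of 8.25, 8.20, 8.04 and 7.87. Every null array lay above every wild-type array, with a log2 difference of 2.03 (SE 0.31), or 4.09-fold. In Prdm4-EGFP cells Rhox9 read 5.21, 5.67, 6.95, 5.03, 5.87 and 4.93, a mean of 5.61 ± 0.75 (SD, n = 6) that overlapped the wild-type mean of 6.06 ± 0.48 (SD, n = 6). Prdm4-EGFP array 3 stood above all wild-type arrays, and without it the difference from wild-type went from -0.45 (SE 0.28) to -0.72. Markers of the extraembryonic lineages, trophoblast and primitive endoderm, also differed between null and wild-type cells. Of 12 trophoblast markers with a probe 5 were tested, of which 3 rose and 1 fell, where 22.9% of all genes rose and 21.2% fell. Tfap2c (log2 difference 1.38), Krt18 (1.05) and Krt8 (0.64) rose, Krt19 fell by 0.67, and Ascl2 did not pass (0.06, adjusted p = 0.763, limma). Krt18 was detected on 1 of 6 wild-type, 4 of 4 null and 1 of 6 Prdm4-EGFP arrays. It met the detection filter only through the null arrays, where it was high, so its call is a description and not a test. Of 12 primitive endoderm markers with a probe 7 were tested, of which 5 rose, among them Dab2 (2.00), Gata6 (1.35) and Col4a2 (1.30), while Sox7 fell by 0.42. Median log2 differences of the tested markers were 0.64 and 0.91, against 0.02 over all genes. The summed signal of the trophoblast list was 831 to 1380 in wild-type, 2172 to 2637 in null and 797 to 1265 in Prdm4-EGFP arrays, with array 3 highest among the last. That of the primitive endoderm list was 2156 to 2773, 2901 to 3031 and 2193 to 3254, with Prdm4-EGFP array 1 highest and array 3 at 2252. Listed factors differed in detection: Cdx2, Eomes and Elf5 of trophoblast and Gata4, Sox17 and Foxa2 of primitive endoderm were not above background on any array. Tfap2c and Sox7 were detected on every array, and Gata6 on 1 of 6 wild-type, 4 of 4 null and 4 of 6 Prdm4-EGFP arrays. Of the markers not tested, Krt7 of trophoblast was detected only among null arrays and Pdgfra of primitive endoderm only among Prdm4-EGFP arrays. The part of such cells in the Rhox6 and Rhox9 levels was not tested. In RNA from whole cultures, a change in the number of cells that use a gene and a change in its RNA per cell cannot be told apart.

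**Figure D1:**
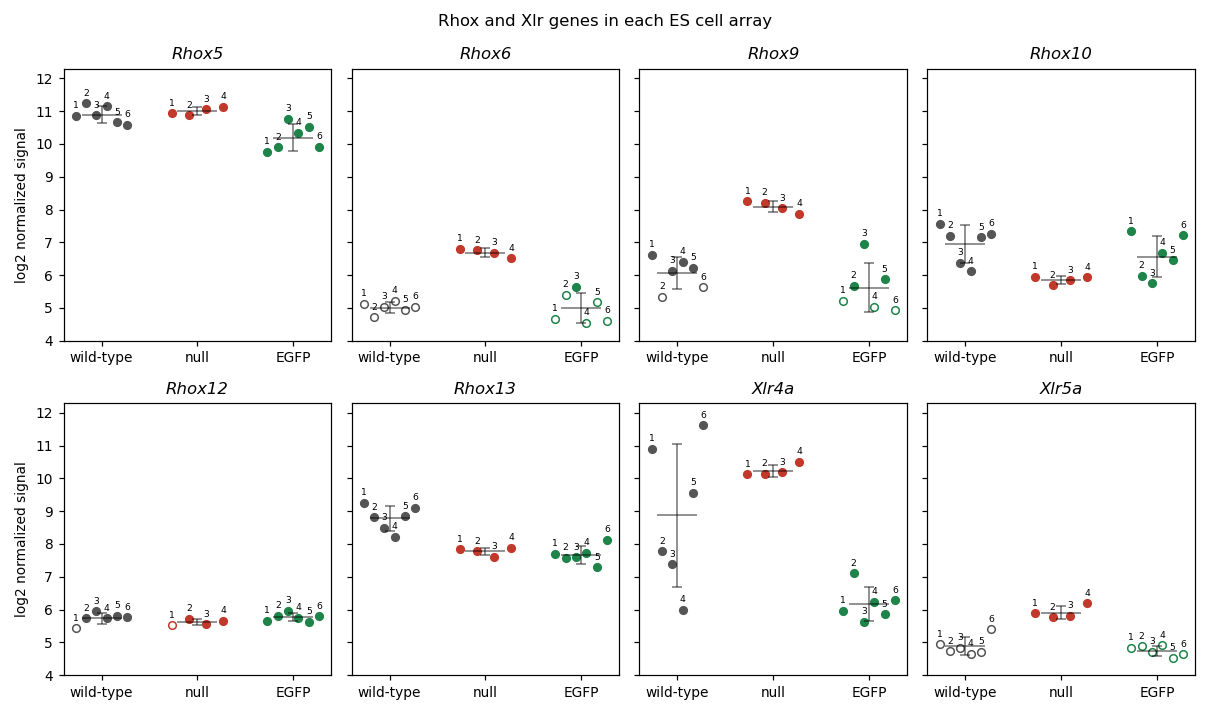
Normalized log2 signal (vertical axis) of 8 Rhox and Xlr genes on each array, with arrays numbered, filled points above background and open points not, and black lines at the group mean ± SD. Rhox6 and Rhox9 are highest on all 4 null arrays, Rhox13 is highest on the wild-type arrays, and Xlr4a spreads from 6.00 to 11.61 among the wild-type arrays.

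Rhox13, known from germ cells of the fetal and postnatal testis, ran the other way and was lower in both altered genotypes. It was detected on every array. Its wild-type levels were 9.25, 8.81, 8.49, 8.21, 8.85 and 9.10. The null arrays read 7.84, 7.78, 7.61 and 7.87, all below the wild-type arrays, with a log2 difference of -1.01 (SE 0.17). The Prdm4-EGFP arrays read 7.70, 7.57, 7.59, 7.73, 7.28 and 8.13, also all below wild-type, with a difference of -1.12 (SE 0.15). Both differences use the same 6 wild-type arrays. The altered genotypes overlapped each other, at 7.78 ± 0.11 (SD, n = 4) and 7.67 ± 0.28 (SD, n = 6). Without wild-type arrays 1, 5 and 6, among which were its highest values, the differences were -0.73 and -0.83.

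Rhox5 was well above background on all arrays. Wild-type levels of 10.86, 11.24, 10.88, 11.14, 10.66 and 10.59 enclosed the null levels of 10.94, 10.87, 11.06 and 11.13, and the log2 difference was 0.11 (SE 0.17). The Prdm4-EGFP arrays read 9.76, 9.90, 10.77, 10.33, 10.52 and 9.91. Their mean was 0.70 below wild-type on the log2 scale (log2 difference -0.70, SE 0.15), but array 3 lay within the wild-type range. The size of this difference depended on which arrays were used, from -1.22 among arrays numbered 1 and 2 to -0.44 among those numbered 3 and above. Against the null arrays all 6 Prdm4-EGFP arrays were lower (-0.80, SE 0.17).

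The start regions of Rhox5 and Rhox13 are shown because these genes, which lie in the same cluster, had different patterns over the groups. Both windows are RefSeq sequence of build GRCm38.p6, from 250 bases before to 50 bases after the annotated start on the plus strand (chrX:37754358-37754657 and chrX:38120590-38120889), with CpG pairs, the sites of DNA methylation, in capitals. Windows were at hand for 4 of the 6 members.
Rhox5: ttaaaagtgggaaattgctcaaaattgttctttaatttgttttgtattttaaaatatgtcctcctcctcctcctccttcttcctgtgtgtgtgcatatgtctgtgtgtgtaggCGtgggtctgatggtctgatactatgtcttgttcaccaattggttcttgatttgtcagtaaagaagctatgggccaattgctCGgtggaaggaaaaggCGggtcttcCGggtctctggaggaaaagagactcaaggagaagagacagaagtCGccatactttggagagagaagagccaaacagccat
Rhox13: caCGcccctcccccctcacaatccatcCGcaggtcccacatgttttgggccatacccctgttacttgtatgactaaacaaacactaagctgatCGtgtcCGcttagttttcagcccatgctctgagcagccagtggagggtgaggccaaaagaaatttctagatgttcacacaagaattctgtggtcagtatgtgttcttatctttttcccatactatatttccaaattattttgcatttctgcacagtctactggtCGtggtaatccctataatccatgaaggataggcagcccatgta
Each window holds 5 CpG pairs, below the median of 7 over 32851 mouse promoter windows of this length. GAAAC, the core of the sequence that the study gives for Prdm4 binding, was searched on both strands and is in neither of these windows, nor in those of Xlr3a and Xlr4a. It occurs in 45.0% of all windows, and its absence from 300 bases says nothing about binding elsewhere. Rhox5 is known to be transcribed from a pair of alternative promoters, of which this is the annotated start.

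Xlr4a had the widest spread of the members. Its wild-type log2 levels were 10.90, 7.77, 7.38, 6.00, 9.56 and 11.61, a 48.9-fold range between arrays of 1 genotype. The wild-type SD of 2.18 was second highest among the 15356 probes, whose median SD was 0.16. The null arrays were tightly grouped at 10.12, 10.14, 10.18 and 10.51. The Prdm4-EGFP arrays read 5.96, 7.10, 5.62, 6.24, 5.86 and 6.28. Wild-type arrays 1 and 6 lay above all null arrays, and array 4 lay inside the Prdm4-EGFP range, of which arrays 1, 3 and 5 were below every wild-type array. The difference of Prdm4-EGFP from wild-type, -2.70 (SE 0.69), was the widest in absolute value of all tested probes in that comparison even though the arrays overlapped. Members were selected on such differences, so this rank partly restates their selection. The difference of null from wild-type was 1.37 (SE 0.77). Leaving out wild-type arrays 1, 5 and 6, which held its highest wild-type levels, turned these into -0.87 and 3.19. The direction of both shifts follows from that choice of arrays. Prdm4-EGFP against null gave -4.06 with no overlap. The SE of this difference was 0.77 in the fit to all groups, where it carries the wild-type spread, and 0.22 in the fit to these 2 groups alone. The Prdm4-EGFP levels were near background, with a detection p-value of 0.0096 on array 3, so these sizes depend on its treatment. With no background correction the difference of Prdm4-EGFP from wild-type was -2.23 (SE 0.55).

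Xlr4a is 1 of 3 near-identical Xlr4 copies. The start regions of Xlr4a (chrX:73082458-73082757, minus strand) and Xlr4b (chrX:73214083-73214382, plus strand) are given to show how alike they are, in the same form and build, with CpG pairs in capitals.
Xlr4a: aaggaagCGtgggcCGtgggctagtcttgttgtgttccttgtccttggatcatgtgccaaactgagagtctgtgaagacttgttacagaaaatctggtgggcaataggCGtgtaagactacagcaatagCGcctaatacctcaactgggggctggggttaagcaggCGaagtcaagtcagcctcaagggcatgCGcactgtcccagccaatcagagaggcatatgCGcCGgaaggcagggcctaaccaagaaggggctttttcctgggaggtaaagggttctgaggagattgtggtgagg
Xlr4b: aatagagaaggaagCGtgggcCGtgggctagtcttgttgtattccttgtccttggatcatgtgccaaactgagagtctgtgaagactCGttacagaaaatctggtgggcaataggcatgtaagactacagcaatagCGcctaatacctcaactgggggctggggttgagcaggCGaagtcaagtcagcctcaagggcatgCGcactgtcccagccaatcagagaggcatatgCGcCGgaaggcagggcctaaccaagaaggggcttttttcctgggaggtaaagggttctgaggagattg
Of 293 aligned positions 288 were identical (98.3%), and the Xlr4c window matched that of Xlr4a at 98.1% of 270 positions. Each of the printed windows has 8 CpG pairs. In the array data the Xlr4a probe was detected on 16 of 16 arrays, whereas the Xlr4b probe and all 3 Xlr4c probes were not above background on any array.

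Over the members, arrays did not overlap in null against wild-type for 2 that were higher (Rhox6, Rhox9) and 1 that was lower (Rhox13) of 5, where 29.6% of all tested probes did not overlap (15% higher, 14.6% lower). In Prdm4-EGFP against wild-type 1 of 5 was lower (Rhox13), against 2.22% of probes (1.1% higher, 1.12% lower), and in Prdm4-EGFP against null 4 of 5 were lower (Rhox5, Rhox6, Rhox9, Xlr4a), against 37.3% (18.5% higher, 18.8% lower). The members were chosen with these contrasts known, so nothing is read from these counts.

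**Figure D2:**
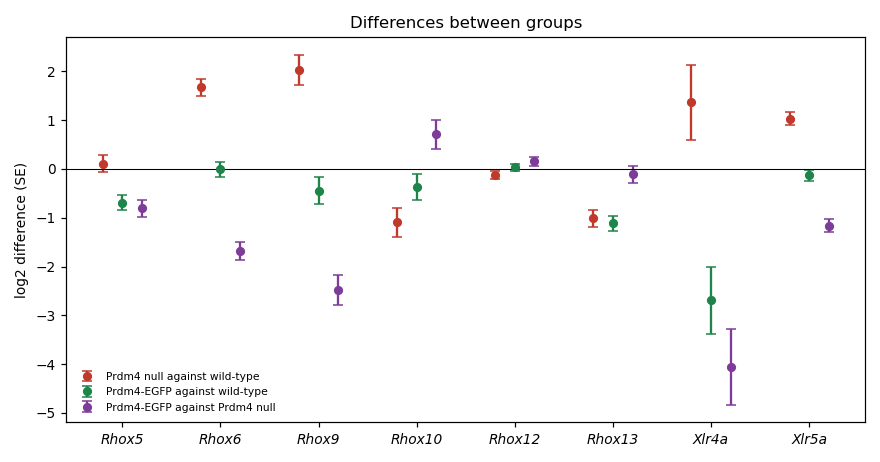
Log2 difference between groups (vertical axis, points with SE bars) for 8 Rhox and Xlr genes in 3 comparisons. Rhox6 and Rhox9 lie above 0 in null against wild-type and below 0 in Prdm4-EGFP against null, and the long bars of Xlr4a reflect the wild-type spread.

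Members also varied inside groups. In wild-type cells arrays 3 and 4 were lowest for both Rhox13 and Xlr4a, and arrays 1 and 6 were highest for both. Rhox9 did not follow that order, with arrays 1 and 4 highest. Among the Prdm4-EGFP arrays array 3 had the highest Rhox5, Rhox6 and Rhox9 and the lowest Xlr4a. Its Rhox5 level of 10.77 was within the wild-type range and its Rhox9 level of 6.95 above it.

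Other genes of both clusters were measured as well. Of 11 further Rhox and Xlr genes with a probe, 3 were tested. Rhox10, which in mouse acts in spermatogonial stem cells, had wild-type levels of 7.57, 7.20, 6.37, 6.12, 7.16 and 7.26 and null levels of 5.95, 5.69, 5.84 and 5.94. All null arrays were lower, and the log2 difference of -1.09 (SE 0.30, adjusted p = 0.00693, limma) passed the threshold of 0.05, as did 41.6% of all probes in that comparison. Without wild-type arrays 1, 5 and 6 it was -0.71 (adjusted p = 0.111), and among arrays numbered 3 and above -0.84 (adjusted p = 0.131). In Prdm4-EGFP cells Rhox10 spread from 5.75 to 7.33 and did not pass against wild-type (-0.38, adjusted p = 0.507), where 3.75% of probes passed. Against null it reached 0.71 (adjusted p = 0.0584), with 46.3% of probes past the threshold.

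Xlr5a was detected on 4 of 4 null arrays and on no other array. It was at least 1.24-fold higher in null than in wild-type cells and at least 1.21-fold lower in Prdm4-EGFP than in null cells. Both differences passed the threshold. The probe met the detection filter only through the null arrays, where it was high, so these calls are a description and not a test. Between Prdm4-EGFP and wild-type both levels were in the background. Rhox12 stayed between 5.43 and 5.97 on all arrays and passed in none of the comparisons (adjusted p = 0.289, 0.894 and 0.169). Rhox1, Rhox8, Rhox11, Xlr3c, Xlr4b, Xlr4c, Xlr5b and Xlr5c were not above background on any array, which for a dim probe does not exclude low expression.

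The neighbouring genes on the X chromosome give the setting of both clusters. Of the 20 tested genes nearest to the Rhox cluster, 10 on each side, 9 rose and 1 fell in null against wild-type cells, with a median log2 difference of 0.18, and over all 8707 genes 22.9% rose and 21.2% fell with a median of 0.02. The small nucleolar RNA Snora69 (1.03, SE 0.13) rose by more than the other neighbours, and the ubiquitin ligase scaffold Cul4b (0.55, SE 0.11) rose too. Of the 20 neighbours of the Xlr cluster 4 rose and 5 fell, the latter including the creatine transporter Slc6a8 (-0.83, SE 0.09) and Zfp185 (-0.62, SE 0.09). Among those that rose, Pdzd4 (at least 1.14-fold) was detected on 0 of 6 wild-type, 3 of 4 null and 1 of 6 Prdm4-EGFP arrays. It met the detection filter only with the null arrays, so its call is a description and not a test. On the X chromosome as a whole 91 of 282 genes rose and 36 fell. In Prdm4-EGFP against wild-type 1 of the 40 neighbours passed, where 1.9% of all genes rose and 2.19% fell. It was Ube2a, a ubiquitin-conjugating enzyme (-0.37, SE 0.09, adjusted p = 0.0216, limma). This call was lost without wild-type array 5 (adjusted p = 0.0551) and without wild-type arrays 1, 5 and 6 (adjusted p = 0.0761).

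**Figure D3:**
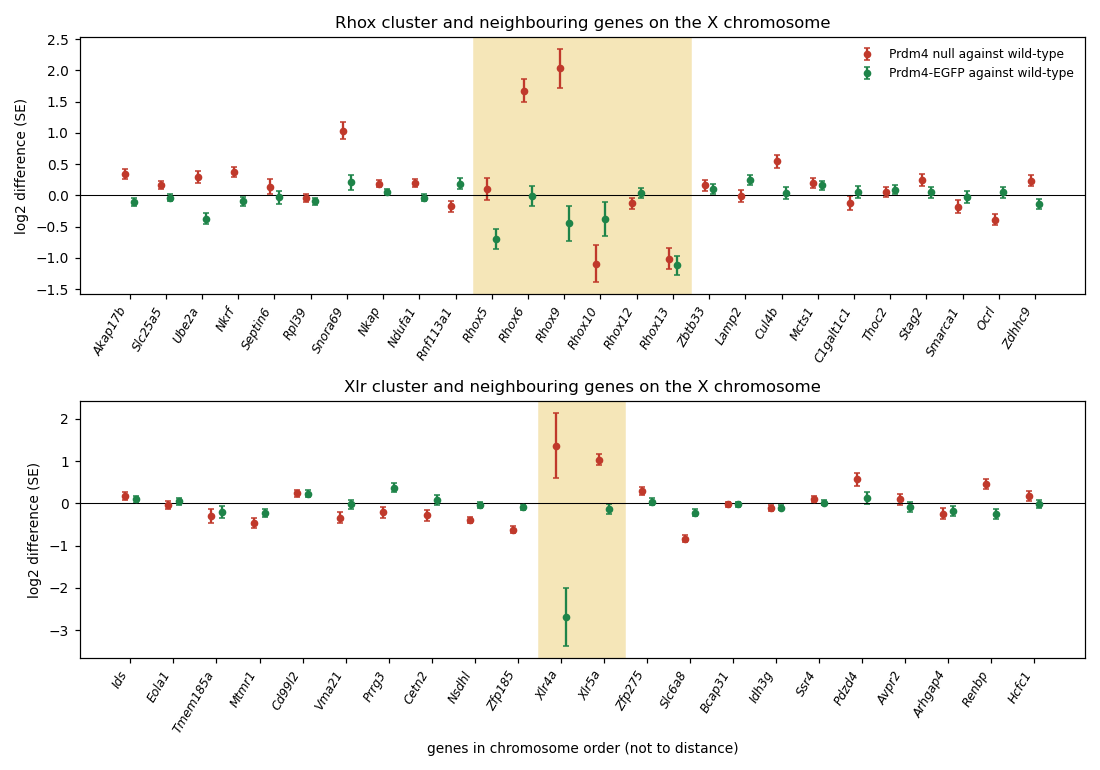
Log2 differences (vertical axis, SE bars) of null and of Prdm4-EGFP against wild-type for tested genes in chromosome order, with Rhox and Xlr genes shaded. Differences of Rhox and Xlr genes reach 2.03 and -2.70, and those of the 40 neighbours lie between -0.83 and 1.03.

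X-linked genes of the germline outside these clusters were examined beside them. Of 29 with a probe only 6 were tested, the others being too dim. In null against wild-type Usp26 (log2 difference 1.13, SE 0.20) and Taf7l (0.95, SE 0.19), a germ cell relative of a general transcription factor, rose. Mageb4 was at least 2.19-fold lower, and Tex11, a meiotic recombination gene, fell by 0.66, a call lost among arrays numbered 3 and above (adjusted p = 0.0786). In Prdm4-EGFP against wild-type 0 rose and 3 fell, where 1.9% and 2.19% of all genes did. Dmrtc1c1 was at least 2.41-fold lower (adjusted p = 7.8e-05), Taf7l differed by -1.01 (adjusted p = 0.00286) and Fmr1nb by -1.38 (adjusted p = 0.0216). The Fmr1nb call did not hold without wild-type array 5 (adjusted p = 0.0514), without wild-type arrays 1, 5 and 6 (adjusted p = 0.185) or in the fit to the 2 groups alone (adjusted p = 0.0575), and those of Fmr1nb and Taf7l were lost among arrays numbered 3 and above (adjusted p = 0.175 and 0.0780).

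Of 9 tested autosomal germline genes that promoter methylation is known to silence, 2 rose and 3 fell in the null cells. Over all genes 22.9% rose and 21.2% fell. The piRNA pathway gene Tex19.1 (0.85, SE 0.09) and its paralog Tex19.2 (0.75, SE 0.15) rose, whereas Tdrkh (-0.61, SE 0.13), which binds Piwi proteins, and Tuba3a (-0.70, SE 0.21), a testis tubulin with a close copy in Tuba3b, fell. The call of Tuba3a was lost without wild-type arrays 1, 5 and 6 (-0.54, adjusted p = 0.0989), and those of Tuba3a and Tdrkh among arrays numbered 3 and above (adjusted p = 0.114 and 0.0769). In Prdm4-EGFP against wild-type cells only Tuba3a passed (-0.93, SE 0.19, adjusted p = 0.00915, limma), where 1.9% of all genes rose and 2.19% fell. That call was lost without wild-type arrays 1, 5 and 6 (adjusted p = 0.112). Neither of these germline lists, X-linked or autosomal, moved in a single direction in the null cells. A further list of 10 germ cell markers, which shares genes with the autosomal list, had 5 tested. Of these 0 rose and 2 fell in null against wild-type, and 1 rose and 0 fell in Prdm4-EGFP against wild-type.

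A list of silencing machinery held 27 tested genes, of DNA methylation, H3K9 methylation, H3K27 methylation (Ezh2, Eed and Suz12) and the germline-gene repressor complexes. It also held Tet1, Tdg and Mbd4, which act in removing methylation or in base repair. Its counts are therefore not of silencing genes alone. In null against wild-type 10 rose and 4 fell, where 22.9% of all genes rose and 21.2% fell. The median log2 difference was 0.05 against 0.02 over all genes. Atf7ip, a partner of the H3K9 methyltransferase Setdb1, rose by 1.67 (SE 0.10, adjusted p = 5.4e-10), with means of 8.08 ± 0.14 (SD, n = 6) in wild-type and 9.76 ± 0.14 (SD, n = 4) in null cells. The 5-methylcytosine oxidase Tet1 rose by 0.71 (SE 0.09) and the repressor subunit L3mbtl2 by 0.49 (SE 0.07), while the methyl-CpG binding protein Mbd2 fell by 0.70. The de novo methyltransferase Dnmt3b rose by 0.47 (SE 0.08, adjusted p = 1.0e-04), and its cofactor Dnmt3l by 0.34 (SE 0.08, adjusted p = 0.00329), a call lost in the authors' normalized values (adjusted p = 0.313). Uhrf1, which brings the maintenance enzyme to replicated DNA, differed by -0.28 (adjusted p = 0.0426) and lost its call when any null array was left out and without wild-type arrays 1, 5 and 6 (adjusted p = 0.15). The maintenance enzyme Dnmt1 itself did not pass (0.03, SE 0.08, adjusted p = 0.819), and Dnmt3a was not tested. In Prdm4-EGFP against wild-type cells 1 of the 27 passed, where 1.9% of all genes rose and 2.19% fell. It was Mbd4 (0.25, SE 0.06, adjusted p = 0.0272, limma). The call was lost without wild-type array 5 or 6 and without Prdm4-EGFP array 4 or 6 (adjusted p = 0.0578 to 0.0611). It was also lost without wild-type arrays 1, 5 and 6 (adjusted p = 0.225).

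Likeness over the 16 arrays, by Pearson's r among 8706 other genes, is a description, since the arrays share 3 groups. Xlr4a was most like Fthl17f, an X-linked ferritin-like gene with close copies (r = 0.97), with Dolpp1 (0.94) and Smtnl1 (0.92) next. Fthl17f had wild-type levels of 7.45, 5.99, 5.31, 4.86, 6.31 and 6.87, null levels of 7.25, 7.03, 7.18 and 7.16, and Prdm4-EGFP levels of 4.86, 4.93, 4.60, 5.00, 4.73 and 4.81. Every Prdm4-EGFP level of Fthl17f, and that of wild-type array 4, was below an undetected Rhox or Xlr probe of the same array. These levels are therefore background, and r rests in part on them. The highest wild-type levels of Fthl17f were those of arrays 1, 5 and 6, and within the wild-type arrays alone r was 0.94. Both follow in part from its choice by likeness to Xlr4a over these same arrays. Rhox9 was most like the apolipoprotein gene Apoe (0.97), X-linked Fhl1 (0.96) and Cd63 (0.96). Rhox6 was most like Fam167a (0.97), the piRNA pathway gene Tdrd12 (0.97) and Golm2 (0.97). The wild-type levels of Fam167a were background by the same measure. Rhox13 was most like Rec114 (0.93), a meiotic recombination gene, Sh3tc2 (0.92) and Gpat2 (0.91). For Rhox5 the closest were Wnt7b (0.88), Ciao1 (0.86) and Spin2c (0.86). No gene was named for more than 1 member.

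**Figure D4:**
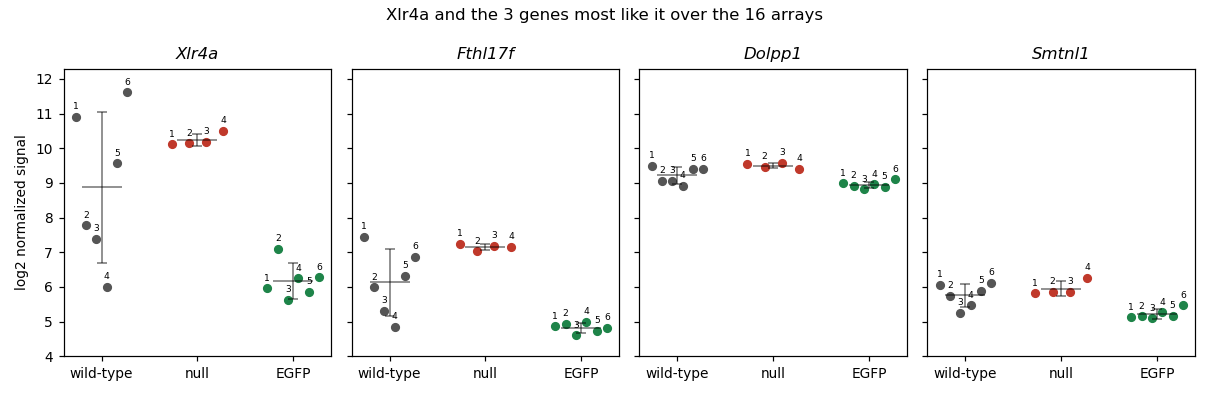
Normalized log2 signal (vertical axis) of Xlr4a and the 3 genes most like it on each numbered array, with black lines at the group mean ± SD. In each panel wild-type arrays 1, 5 and 6 are above arrays 2, 3 and 4, and the range of levels is widest for Xlr4a. Points of the other genes are filled whether or not they were above background.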

How the data were processed

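Total RNA of 16 arrays was analysed. The deposited scanner table held a signal intensity and a detection p-value per probe, per the file headers, not normalized by the authors. The authors also deposited intensity values after background subtraction and rank-invariant normalization, used as an alternative. In R 4.3.3 with limma 3.58.1, neqc (offset 16) corrected background, quantile-normalized and gave log2 levels. A probe was kept where at least 4 arrays had a detection p-value under 0.01. One limma fit (lmFit, eBayes) of 3 group means gave two-sided p-values, adjusted by Benjamini and Hochberg over 15356 probes at a threshold of 0.05. The probe of highest mean stood for a gene (8707 genes). Annotation gave 34885 probes 1 symbol, 18 several and 10378 none. Gene order and promoter windows came from RefSeq tables (GRCm38.p6). Promoters were aligned with Biopython 1.88. The steps were tested on simulated data.

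Members and lists were chosen with earlier results of these data known. Named genes were the members, other tested Rhox and Xlr genes, main DNA methylation genes, up to 4 called genes of largest difference per list and comparison, and the 3 genes most like each member. The number of arrays limits the precision. Software versions of the authors are not given in the sources used here. In all 32 alternatives were run, 16 of them leaving out 1 array each.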

Additional observations from a re-analysis of the deposited data

Results flagged for a closer look

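Among 24 groups of arrays (8 Rhox and Xlr genes in 3 genotypes), 1 held an array far from the others. Null array 4 had an Xlr4a level of 10.51, and the other null arrays lay between 10.12 and 10.18. The gap was 0.837 of the range of the group. Chance flags about 1 in 20 such groups.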

How the results depend on the processing

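Against 6381 probes called in null against wild-type, 2897 were called with arrays numbered 1 and 2 only, 3942 with those numbered 3 and above and 2728 at an adjusted p under 0.001. In Prdm4-EGFP against null 7115 became 2913 with arrays 1 and 2 and 3284 at 0.001. In Prdm4-EGFP against wild-type 576 became 317 with no filter on dim probes, 4 with arrays 1 and 2, 88 with arrays 3 and above, 206 without wild-type arrays 1, 5 and 6, 319 in a fit to the 2 groups alone, 36 at 0.001 and 329 to 777 when 1 array was left out. The lowest of these counts came from leaving out wild-type array 5, and those without wild-type array 6 (363) or Prdm4-EGFP array 5 (359) were also under the reported count by over 1.5 times. Summed over the 3 comparisons, 3 calls of other Rhox and Xlr genes became 1 with probes detected on all 16 arrays, 13 of X-linked germline genes became 4 there, 5 with arrays 1 and 2 and 7 at 0.001, and 28 of the silencing machinery became 10 and 13 in the latter settings. Calls of autosomal germline genes went from 9 to 5 (arrays 1 and 2), 4 (arrays 3 and above) and 4 (0.001), and those of chromosome neighbours from 39 to 16, 21 and 16. A stricter threshold calls fewer probes by construction, and the cause of the other changes was not tested. In Prdm4-EGFP against null 7699 were called without wild-type arrays 1, 5 and 6 and 7641 in the fit to the 2 groups alone. In the authors' normalized values 36.9% of calls in null against wild-type were higher, against 50.9% in the values reported, and 61.1% against 49.5% in Prdm4-EGFP against null. The Rhox6 difference of null from wild-type was 2.25 there, 0.96 with no background correction and 1.05 at an offset of 50, a range that holds for a gene at background in wild-type. No called value changed direction under any alternative. Arrays sharing a number correlated weakly, with a mean r of 0.10 over 14 pairs and 7 of them above 0.1. For different numbers the mean was -0.02 over 70 pairs, with 11 above 0.1. The numbers were not taken as pairs in the main fit. With a replicate block the calls were 6116, 583 and 6882, and Mbd4 in Prdm4-EGFP against wild-type was the only named gene to lose its call (adjusted p = 0.0556). Rhox10 in Prdm4-EGFP against null passed in 8 alternatives, with adjusted p down to 0.0101 with array weights. Without wild-type arrays 1, 5 and 6, Mbd2 in Prdm4-EGFP against wild-type (adjusted p = 0.0368) and Dmrtc1c1 in null against wild-type (adjusted p = 0.00537) passed.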
